A study of Mus musculus with 9 samples.

Results

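Lysine and proline are amino acids that the liver takes apart for energy and for building glucose or ketone bodies. The enzymes described are 10 listed genes of lysine breakdown (Aass, Aldh7a1, Aadat, Dhtkd1 and Gcdh), proline breakdown (Prodh, Prodh2 and Aldh4a1) and proline synthesis (Pycr1 and Aldh18a1), found by their gene symbol in the annotation of the array. Of these, 9 have a value among the 19938 genes with one, and Pycr1 has none here. Liver RNA of male C57BL/6J mice was measured in 9 pools of 5 mice each, with 1 Affymetrix Mouse Gene 1.0 ST array per pool, as log2 signal from the robust multiarray analysis (RMA). The reference group, aged 12 weeks, was killed at week 0 after a run-in on the low fat-normal protein diet (LF-NP), which every group had received. The other 8 pools came from mice fed LF-NP, low fat-high protein (LF-HP), high fat-normal protein (HF-NP) or high fat-high protein (HF-HP) diets for 1 or 12 weeks, with ages labelled 13 and 22 weeks. The label of 22 weeks is younger than the protocol's start of the diets at 12 weeks of age and 12 weeks of feeding would give. LF diets held 10% and HF diets 35% of their energy as fat, and NP diets held 15% and HP diets 50% as milk protein. Carbohydrate made up the rest, 75% in LF-NP, 40% in LF-HP, 50% in HF-NP and 15% in HF-HP, so that more protein cannot be told apart from less carbohydrate. All mice were killed after a calibrated meal. Since each pool averages its mice and each diet and time point has 1 array, the spread between mice is not in these values. Each test thus takes its error from how far the pools depart from the fitted effects of protein, fat and duration.

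In mammals lysine is broken down mainly in liver mitochondria by the saccharopine pathway. Aass (alpha-aminoadipic semialdehyde synthase) joins lysine to oxoglutarate and splits the product to aminoadipic semialdehyde. Aldh7a1 (antiquitin) oxidises the semialdehyde to aminoadipate, Aadat transfers its amino group, Dhtkd1 is the dehydrogenase part of the complex that decarboxylates oxoadipate, and Gcdh oxidises the resulting glutaryl-CoA on the way to acetyl-CoA. Loss of Aldh7a1 in humans causes pyridoxine-dependent epilepsy and loss of Gcdh glutaric aciduria. Proline is oxidised by Prodh, and hydroxyproline from collagen by Prodh2. Aldh4a1 takes the pyrroline carboxylate formed from proline to glutamate and also handles the hydroxyproline product. In the other direction Aldh18a1 (pyrroline carboxylate synthase) makes pyrroline carboxylate from glutamate, and Pycr1 reduces it to proline. Both synthesis genes are known targets of the transcription factor ATF4, which is activated by amino acid shortage and other stress.

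The promoters of 3 of the enzymes are shown. Those of Aass and Aldh4a1 were picked for similar profiles over the 9 pools, and that of Prodh as the first enzyme of the proline branch. Each is the stretch of 250 bases before the start of the gene, from RefSeq on GRCm38.p6, written in the direction of the gene, with the CAAT box (CCAAT, searched on both strands and so also as ATTGG) in capitals.
Aass, chr6:23132987-23133236, minus strand: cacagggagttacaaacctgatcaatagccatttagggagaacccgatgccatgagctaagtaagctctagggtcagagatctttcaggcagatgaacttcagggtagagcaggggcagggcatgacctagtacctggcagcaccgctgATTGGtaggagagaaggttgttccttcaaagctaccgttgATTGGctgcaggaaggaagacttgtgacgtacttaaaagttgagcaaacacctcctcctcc
Aldh4a1, chr4:139622644-139622893, plus strand: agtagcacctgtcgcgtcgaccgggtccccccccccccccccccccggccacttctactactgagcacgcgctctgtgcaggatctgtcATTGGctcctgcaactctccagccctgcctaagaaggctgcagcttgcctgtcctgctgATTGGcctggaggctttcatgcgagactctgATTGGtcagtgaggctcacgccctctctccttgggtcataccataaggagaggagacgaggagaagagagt
Prodh, chr16:18089191-18089440, minus strand: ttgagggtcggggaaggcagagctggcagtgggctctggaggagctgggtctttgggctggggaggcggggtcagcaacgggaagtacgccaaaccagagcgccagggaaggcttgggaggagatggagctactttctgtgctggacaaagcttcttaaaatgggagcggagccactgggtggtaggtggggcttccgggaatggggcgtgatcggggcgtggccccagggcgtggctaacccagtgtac
The Aass window holds the box at positions -101 and -61 and the Aldh4a1 window at -161, -102 and -71, counted from the start of the gene, all on the reverse strand. In the Prodh window these letters do not occur. CCAAT is common, as 33.9% of 32851 mouse promoter windows of the same length hold it. Promoters were found for 9 of the 10 listed genes, all but Aldh7a1, and 6 of these (Aass, Aldh4a1, Dhtkd1, Gcdh, Prodh2 and Pycr1) hold CCAAT. The GC box GGGCGG was present in 4 (Aadat, Gcdh, Pycr1 and Aldh18a1), against 32.7% of all windows. TGATGNAA, a motif bound by C/EBP-ATF dimers, was present in Pycr1 at -103, against 3.45% of all windows. TATAAA (12.4% of windows) and TGACGTCA (1.55%) were found in 0 of the 9. These are matches of letters only, and a link to expression was not tested.

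The values are normalised between arrays, which in itself brings the arrays' medians close. These medians over the genes tested differed by at most 0.064 log2 units. The lowest correlation between any pair of arrays was 0.993, taken over genes that differ widely in level. Each of the 9 enzymes is read by 1 probe set with a single gene symbol. Expression of hepatocyte markers was high in all pools, with mean log2 signals of 11.9 to 13.88 for the 7 genes, among them albumin.

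HP feeding was accompanied by a higher level of Aass, and most of the other breakdown enzymes lay a little higher in HP pools without passing the test. With fat and week as covariates in limma, 1 of 9 enzymes (Aass) was higher and 0 were lower at a Benjamini-Hochberg adjusted p under 0.05. Of all genes, 34 were higher (0.171%) and 54 lower (0.271%). Differences were positive for 7 of 9 enzymes and for 48.1% of all genes, and their median was 0.13 log2 units over the enzymes and 0.00 over all genes. The difference was positive in each of the 4 matched comparisons, each of 1 HP and 1 NP pool that share fat level and week, for 6 of 9 enzymes (Aass, Aldh7a1, Gcdh, Prodh, Prodh2 and Aldh4a1), against 6.01% of all genes. Some pools have equal values, and a matched difference of 0, as for Dhtkd1 on HF after 1 week, is not counted as positive. For 2 enzymes, Aass and Aldh7a1, every HP pool lay above every NP pool, which held for 1.88% of all genes. Higher at an unadjusted p under 0.05 in limma were 5 of 9 enzymes, against 4.59% of all genes. These shares cover genes of all signal levels, while 8 of the 9 enzymes have a mean above the median gene. The enzymes and the gene lists were chosen with earlier results of these data known. Such shares, here and below, are thus descriptions and no independent test. In whole-liver RNA, fewer cells of a type and less RNA per cell cannot be told apart.

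**Figure D1:**
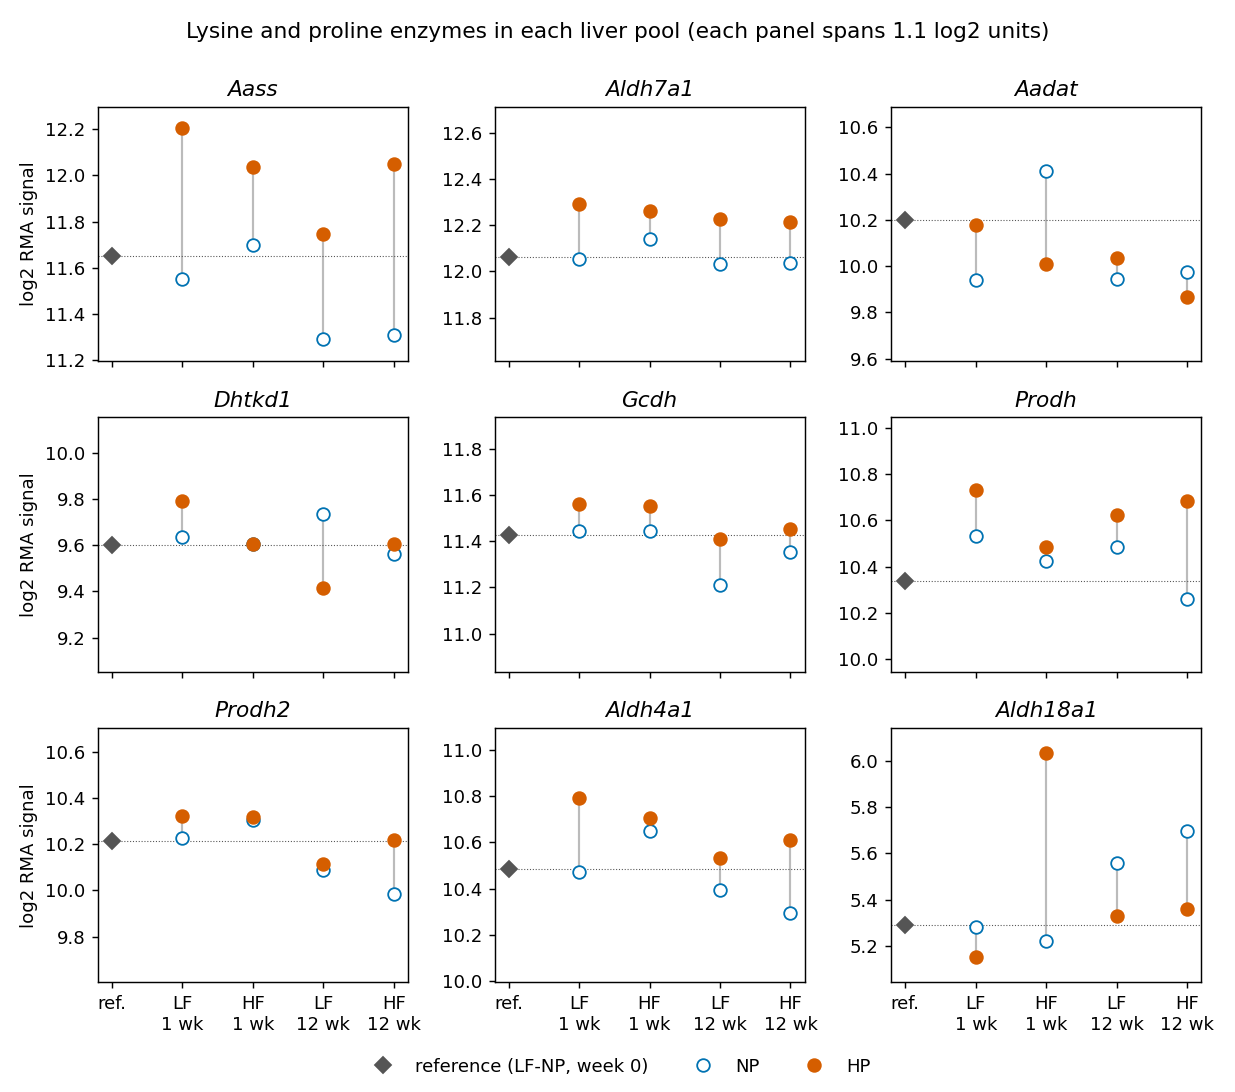
Level of each of the 9 enzymes (vertical axes, log2 RMA signal, each spanning the same width) in the 9 liver pools. Filled circles are HP and open circles NP pools, lines join pools that share fat level and week, and the diamond and dotted line show the reference pool. All 4 HP pools lie above all 4 NP pools for Aass and Aldh7a1, while Aldh18a1 stands highest in the HF-HP pool of week 1.

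The first enzyme of lysine breakdown, Aass, had a log2 signal of 12.20 in LF-HP and 12.04 in HF-HP after 1 week, and of 11.75 and 12.05 after 12 weeks. In NP pools it was 11.55 in LF-NP and 11.70 in HF-NP after 1 week, and 11.29 and 11.31 after 12 weeks, with 11.65 in the reference pool. The groups did not overlap, but the lowest HP pool (LF-HP, week 12) lay only 0.05 above the highest NP pool (HF-NP, week 1). HP pools averaged 12.01 ± 0.19 (SD, n = 4) and NP pools 11.46 ± 0.20 (SD, n = 4). The difference corresponds to 1.46-fold, with a 95% interval of 0.35 to 0.74 on the log2 scale. Its adjusted p in limma was 0.0499, at the edge of the threshold, and with any of the 8 pools left out it was between 0.0563 and 0.196 while the difference stayed between 0.48 and 0.62. With the 4 matched comparisons as blocks the adjusted p was 0.0822, so that Aass no longer passed. In the matched comparisons the difference was 0.65 on LF and 0.34 on HF after 1 week, and 0.46 on LF and 0.74 on HF after 12 weeks. Its dependence on fat (interaction -0.02, standard error 0.17) or week (0.10, standard error 0.17) was within error.

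Aldh7a1, which carries out the next oxidation, moved within a narrow band. Its log2 signal was 12.29, 12.26, 12.23 and 12.21 in the LF-HP and HF-HP pools of week 1 and week 12, in that order. In NP it was 12.05 in LF-NP and 12.14 in HF-NP after 1 week, and 12.03 and 12.04 after 12 weeks. All HP pools were higher than all NP pools, with 0.07 between the nearest. The difference was 0.18 (95% interval 0.06 to 0.30), with an unadjusted p of 0.00951 and an adjusted p of 0.267 in limma, and thus did not pass. In the matched comparisons it lay between 0.12 and 0.24.

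The middle enzymes of the pathway showed no common direction. Aadat, the aminoadipate aminotransferase, had its highest signal (10.41) in the HF-NP pool of week 1, while the other NP pools lay at 9.94, 9.95 and 9.97. In HP pools it was 10.18 in LF-HP and 10.01 in HF-HP after 1 week, and 10.03 and 9.87 after 12 weeks. HP was thus above NP on LF (0.24 and 0.09 in weeks 1 and 12) and below it on HF (-0.40 and -0.11). This sign pattern was seen in 3.41% of all genes. The interaction of protein and fat was -0.42 (standard error 0.16, unadjusted p = 0.0385, adjusted p = 0.706 in limma) and did not pass. Dhtkd1 ranged from 9.41 in LF-HP to 9.74 in LF-NP, both of week 12, and its matched differences ran from -0.32 to 0.16. The HP minus NP differences of Aadat (-0.04, 95% interval -0.30 to 0.21) and Dhtkd1 (-0.03, 95% interval -0.23 to 0.17) leave room for a change in either direction.

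At the last of the listed steps, Gcdh averaged 11.49 ± 0.07 (SD, n = 4) over the HP pools and 11.36 ± 0.11 (SD, n = 4) over the NP pools. Its matched differences were 0.12, 0.11, 0.20 and 0.10, with LF and HF of week 1 given first. The fitted difference was 0.13, with a standard error of 0.05 and an adjusted p of 0.470 in limma. The groups overlapped, since LF-HP after 12 weeks (11.41) was lower than both NP pools of week 1 (11.45 and 11.44).

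**Figure D2:**
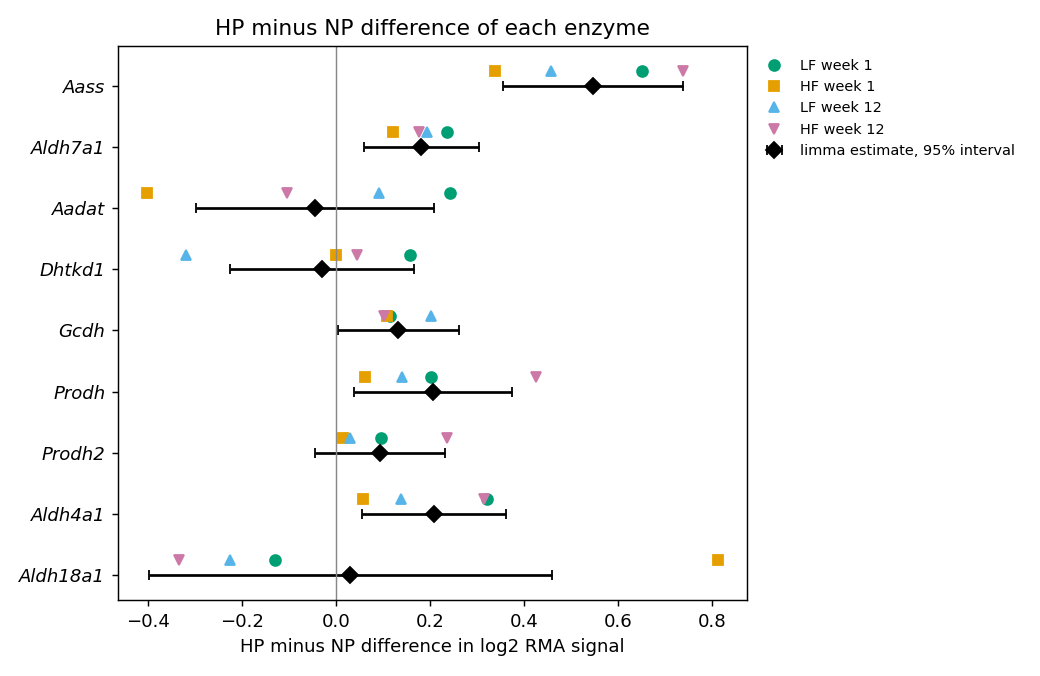
Difference between HP and NP pools (horizontal axis, log2 RMA signal, HP minus NP) for the 9 enzymes. Coloured symbols are the 4 matched comparisons that share fat level and week, and black diamonds with bars are limma estimates with 95% intervals. The symbols of Aass, Aldh7a1, Gcdh, Prodh, Prodh2 and Aldh4a1 all lie above 0, and those of Aldh18a1 span from -0.34 to 0.81.

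Proline breakdown enzymes lay higher in HP pools in all 12 matched values of the 3 genes, but none passed the test. Prodh, which starts proline oxidation, had a log2 signal of 10.73 in LF-HP and 10.49 in HF-HP after 1 week, and of 10.62 and 10.68 after 12 weeks. The NP values were 10.53 in LF-NP and 10.42 in HF-NP after 1 week, and 10.49 and 10.26 after 12 weeks. Groups overlapped, because the HF-HP pool of week 1 was no higher than the LF-NP pools. The difference was 0.21 (95% interval 0.04 to 0.37, adjusted p = 0.359 in limma), and its largest matched value was 0.42, on HF after 12 weeks.

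Aldh4a1, shared by the proline and hydroxyproline routes, was at 10.79 in LF-HP and 10.71 in HF-HP after 1 week, and at 10.53 and 10.61 after 12 weeks. In NP pools it was at 10.47 and 10.65 after 1 week in LF-NP and HF-NP, and at 10.39 and 10.30 after 12 weeks. Here the HF-NP pool of week 1 overlapped with the HP pools. The difference was 0.21 (95% interval 0.06 to 0.36, adjusted p = 0.302 in limma). Prodh2, the hydroxyproline enzyme, differed least of the 3, by 0.09 (95% interval -0.05 to 0.23, adjusted p = 0.695 in limma), with matched differences from 0.01 to 0.23.

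Like Aadat and Dhtkd1, and unlike the other breakdown enzymes, the synthesis enzyme Aldh18a1 was not higher in HP in every matched comparison. Its log2 signal was 6.03 in the HF-HP pool of week 1 and 5.15 to 5.69 in the other 8 pools. In these 8 it was below the median gene of the arrays (5.85), so its differences are read from a weak signal. The HP minus NP difference was 0.81 on HF after 1 week, but -0.13 on LF after 1 week and -0.23 and -0.34 on LF and HF after 12 weeks. Over all pools it was 0.03 (95% interval -0.40 to 0.46), and it was -0.21 when the HF-HP pool of week 1 was left out. The interaction of protein and week was -0.62 (standard error 0.31, unadjusted p = 0.0876, adjusted p = 1 in limma). With 1 pool per diet and week, the high value in that pool has no replicate.

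Other targets of ATF4 were followed in the same pools. Of 12 genes on the list, 5 (Asns, Psat1, Mthfd2, Atf5 and Slc7a11) had the highest of their 9 values in the HF-HP pool of week 1, as Aldh18a1 had. The same held for 11.2% of all genes. That pool is the one where Aldh18a1 peaked, and it is 1 array. Asns, which makes asparagine, reached 8.78 in that pool and 7.21 in the HF-HP pool of week 12, and was at 5.21 to 5.99 in the other 7. Psat1, a serine synthesis enzyme, was at 6.01 there and at 4.88 to 5.35 elsewhere. The cystine importer Slc7a11 was at 4.52 there and at 3.19 to 3.45 elsewhere. Atf4 mRNA itself was at 7.14, within its range of 6.87 to 7.18. In the matched comparison on HF after 1 week, 9 of 12 genes were positive with a median of 0.20, while 9325 of all 19938 genes were positive with a median of 0.00. In that comparison Trib3 (0.00), Ddit3 (0.05), Phgdh (0.05) and Sesn2 (-0.03) hardly differed, and Shmt2 was lower in HP (-0.17). Chac1 was positive (0.57), but its 7.08 in HF-HP lay below the reference pool (7.33). The median of the list was 0.03 on LF after 1 week, -0.01 on LF after 12 weeks and 0.01 on HF after 12 weeks. On HF after 12 weeks Asns was again higher in HP (2.01), while Aldh18a1 was lower (-0.34). Over all pools 6 of 12 were positive, and 0 passed the test in either direction (2 at an unadjusted p under 0.05, Asns and Atf4). The estimates were 1.33 (standard error 0.49, adjusted p = 0.405 in limma) for Asns and 0.15 (standard error 0.06, adjusted p = 0.475) for Atf4. Those for Psat1 (0.28, standard error 0.15, adjusted p = 0.618) and Slc7a11 (0.38, standard error 0.22, adjusted p = 0.651) did not pass either, and both genes have a mean signal below that of the median gene. Kupffer cell markers were also higher in HF-HP than in HF-NP after 1 week, in 5 of 5 genes with a median of 0.40. The part of ATF4 and of these cells in the values of that pool was not tested.

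**Figure D3:**
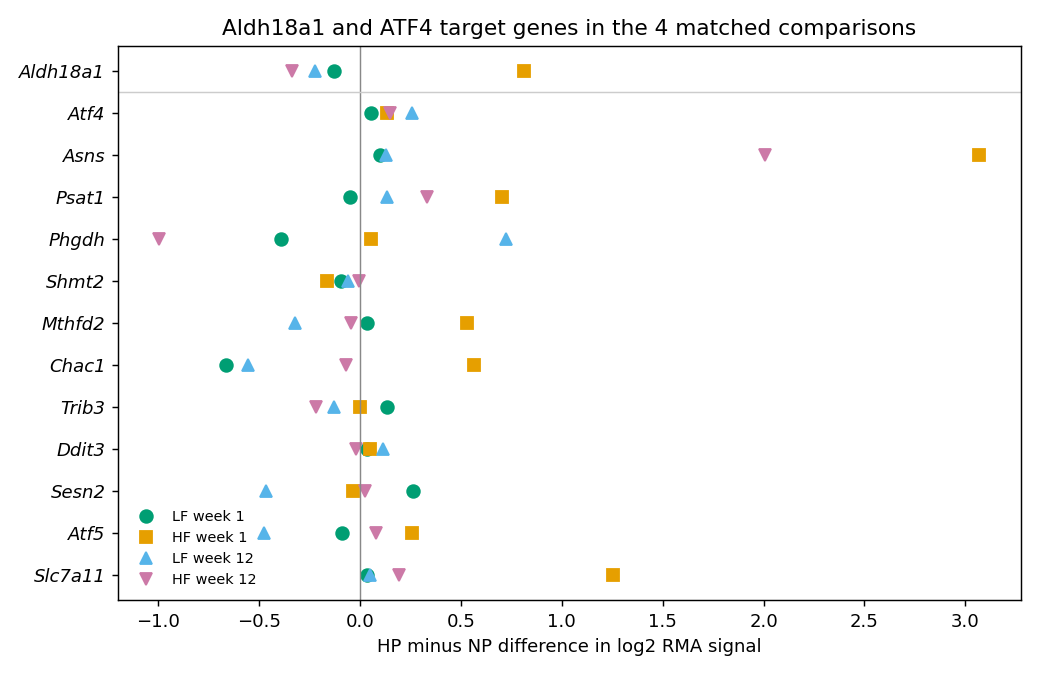
Difference between HP and NP pools (horizontal axis, log2 RMA signal, HP minus NP) for Aldh18a1 and 12 ATF4 target genes in each of the 4 matched comparisons, with 1 HP and 1 NP pool each and no error bar. Squares (HF, week 1) stand far to the right for Asns (3.07), Slc7a11 (1.25), Aldh18a1 (0.81) and Psat1 (0.70). Those of Trib3, Ddit3, Phgdh and Sesn2 lie close to the vertical line, and that of Shmt2 lies left of it.

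Duration and fat were compared in the same fit. In pools of week 12, 8 of 9 enzymes were lower than in pools of week 1 (all but Aldh18a1), with a median of -0.14, while 45.4% of all genes were positive and their median was -0.01. None of the 9 passed in limma, where 1 of all genes (0.00502%) did. Lower at an unadjusted p under 0.05 were 4 enzymes, against 5.3% of all genes. These were Aass (-0.27, standard error 0.08, adjusted p = 0.569), Prodh2 (-0.19, standard error 0.06, adjusted p = 0.576), Aldh4a1 (-0.20, standard error 0.07, adjusted p = 0.576) and Gcdh (-0.14, standard error 0.05, adjusted p = 0.602). Weeks of diet and age of the mice cannot be told apart. Between HF and LF pools 0 of 9 enzymes differed at an adjusted or unadjusted p under 0.05, with estimates from -0.13 for Prodh to 0.25 for Aldh18a1. Of all genes 0 (0%) passed for fat, and 664 did so at an unadjusted p under 0.05. Neither interaction of protein, with fat (0% of all genes, 1400 unadjusted) or with week (0% of all genes, 523 unadjusted), passed for any of the 9 enzymes in limma.

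Relative to the reference pool, Aass was higher in all 4 HP pools and lower in 3 of 4 NP pools, all but HF-NP of week 1. Its change from the reference was 0.36 on average in HP pools (range 0.09 to 0.55) and -0.19 in NP pools (range -0.36 to 0.04). After 12 weeks on NP diets the change of Aass was -0.36 on LF and -0.34 on HF. Above the reference in all 4 HP pools were 4 of 9 enzymes (Aass, Aldh7a1, Prodh and Aldh4a1), with mean changes of 0.36, 0.19, 0.29 and 0.18, against 19.1% of all genes. Below it in both NP pools of week 12 were 6 of 9 (Aass, Aldh7a1, Aadat, Gcdh, Prodh2 and Aldh4a1), against 30.2% of all genes. Prodh was above the reference in 3 of 4 NP pools as well. The reference is 1 array, so these changes carry no test, and they share that array.

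The rest of the lysine pathway was taken from a list of 17 genes, all with a value. Of these 0 passed as higher and 1 (Hykk) as lower, and 13 were positive with a median of 0.06. Hykk, the kinase of hydroxylysine, which comes from collagen, fell by 0.52 log2 units (adjusted p = 0.0446 in limma, standard error 0.07). Its log2 signal was 9.59, 9.79, 9.65 and 9.59 in the LF-HP and HF-HP pools of week 1 and week 12, in that order. In NP pools it was 10.25 and 10.07 after 1 week and 10.24 and 10.14 after 12 weeks, LF before HF, so that every HP pool was lower than every NP pool. With each pool left out in turn its adjusted p lay between 0.0465 and 0.172, and it passed in 1 of 8 such fits, the one without the HF-HP pool of week 1. With matched comparisons as blocks (adjusted p = 0.0822), and within either week or either fat level, it did not pass. Within a single week or fat level, however, 0 of all genes passed. Genes that share later steps or subunits with other pathways did not pass. These were Dlst (0.19, adjusted p = 0.301) and Dld (0.22, adjusted p = 0.333), the other subunits of the oxoadipate dehydrogenase, Ehhadh of peroxisomal oxidation (0.54, adjusted p = 0.322) and the oxoadipate carrier Slc25a21 (0.12, adjusted p = 0.523). Carnitine is made from trimethyllysine released from proteins. Of the 4 genes of this route with a value (of 5 listed), 1 was positive, the median was -0.08 and 0 passed, with Shmt1 at -0.11, Bbox1 at -0.09, Shmt2 at -0.08 and Aldh9a1 at 0.02.

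Of the 22 other genes of proline and hydroxyproline metabolism 19 have a value, among which 12 were positive with a median of 0.08, 1 passed as higher (Agxt) and 0 as lower. Agxt, which turns the glyoxylate left from hydroxyproline into glycine, rose by 0.61 (standard error 0.08, adjusted p = 0.0424 in limma). It was at 9.83, 9.77, 9.59 and 9.90 in HP pools, in the order used for Hykk, and at 9.12, 9.46, 8.98 and 9.10 in NP pools, without overlap. Its adjusted p was 0.0465 to 0.164 with each pool left out, and it passed in 1 of these 8 fits, again that without the HF-HP pool of week 1. With matched comparisons as blocks its adjusted p was 0.0778. Oat links ornithine to pyrroline carboxylate. Its log2 signal was 12.65, 12.34, 12.26 and 12.29 in HP and 12.02, 11.99, 11.67 and 11.92 in NP pools, also without overlap, and its difference of 0.48 (standard error 0.09) missed the threshold with an adjusted p of 0.0806. Arginase Arg1 (0.25, adjusted p = 0.289) and glutamate dehydrogenase Glud1 (0.13, adjusted p = 0.474) were positive in all 4 matched comparisons and did not pass. The pyrroline carboxylate reductase Pycrl, now called Pycr3, was negative in all 4 (-0.40, -0.32, -0.21 and -0.08) with an adjusted p of 0.232.

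**Figure D4:**
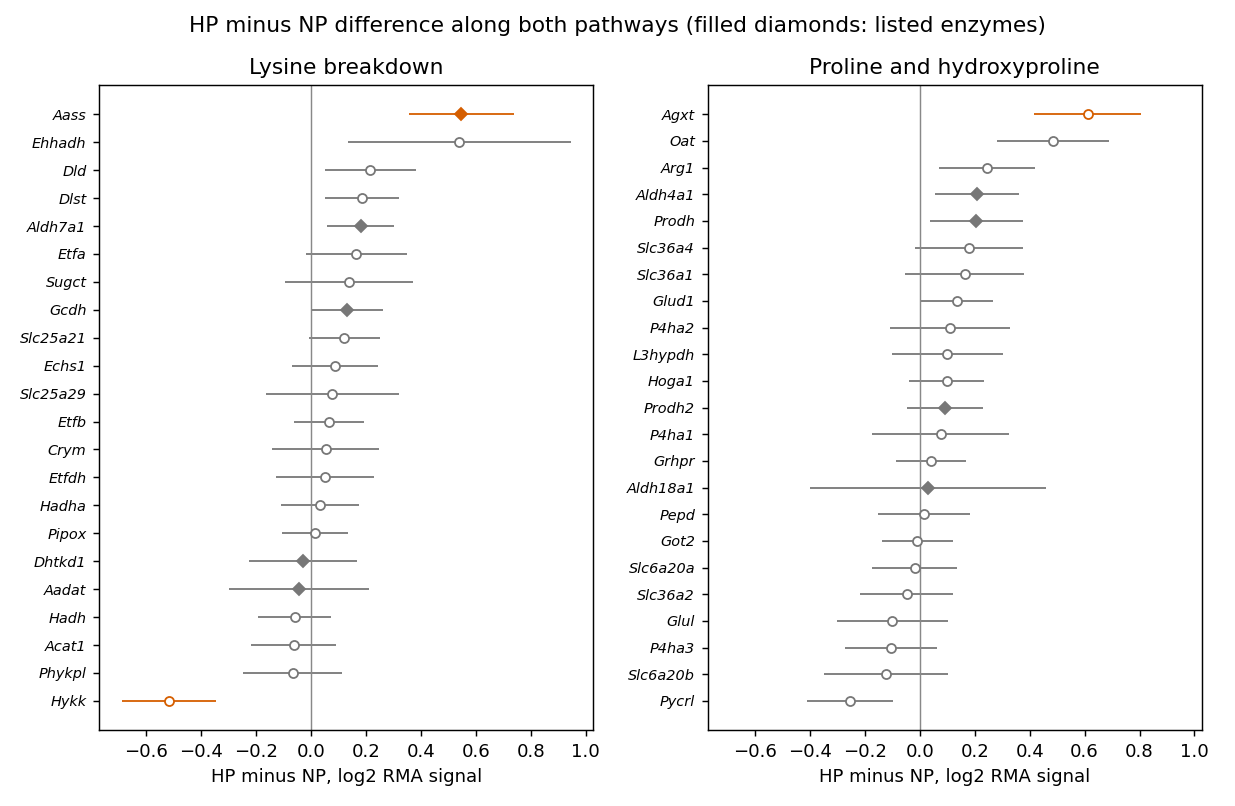
Difference between HP and NP pools (horizontal axes, log2 RMA signal, HP minus NP) with 95% intervals from limma for the genes of lysine breakdown (left) and of proline and hydroxyproline metabolism (right). Filled diamonds are the 9 listed enzymes, open circles other genes, and orange marks those past the test, which are Aass, Hykk and Agxt.

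Aldh7a1, Aldh4a1 and Aldh18a1 belong to the aldehyde dehydrogenases, and the 16 other members of that superfamily showed no shared direction. Of these, 7 were positive, the median was -0.02, and 1 passed as higher and 0 as lower. Aldh1b1, a mitochondrial acetaldehyde and retinaldehyde dehydrogenase, rose by 1.67 (standard error 0.22, adjusted p = 0.0379 in limma), with 8.37, 9.35, 8.45 and 9.55 in HP and 7.53, 7.31, 6.92 and 7.27 in NP pools, in the same order. Its adjusted p was 0.0319 to 0.154 with each pool left out, and it passed in 1 of these 8 fits, that without the LF-NP pool of week 1. With matched comparisons as blocks its adjusted p was 0.0584. Next by p were the folate enzyme Aldh1l1 (0.31, adjusted p = 0.102), Aldh1a7 (0.32, adjusted p = 0.245), Aldh6a1 of valine breakdown (0.21, adjusted p = 0.417) and the retinaldehyde dehydrogenase Aldh1a1 (-0.18, adjusted p = 0.447).

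Among the enzymes, the profiles of Aass over the 9 pools were closest to those of Aldh4a1 (Pearson's r = 0.924) and Aldh7a1 (r = 0.92), and Prodh2 and Aldh4a1 had r = 0.897. With Aldh18a1 the correlation of Aass was -0.132. Among the 9969 genes whose mean lies above the median gene, those most like Aass were Ebp of sterol synthesis (r = 0.977), Cth of cysteine synthesis (0.975), Hip1r (0.975), the mitochondrial ornithine carrier Slc25a15 (0.973) and Nipa2 (0.972). Most like Prodh were Smim19 (0.97), Nt5m (0.951), Selenoo (0.943), the urate oxidase Uox (0.938) and Slc25a28 (0.937). Most like Aldh18a1 were Tmem176a (0.963), Tmem176b (0.957), Slc2a4rg-ps (0.906), Sergef (0.905) and 9530080O11Rik (0.905). The profile of Aldh18a1 is marked by its value in the HF-HP pool of week 1 (6.03, against 5.15 to 5.69 in the other pools). All these correlations share the same 9 arrays and are given as descriptions.

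Markers of other cells were read beside these results. Summed linear signal of the 7 hepatocyte markers was 66815 to 70348 in HP and 63588 to 68030 in NP pools, and 0 of 7 passed the test. Of these, 4 were positive, with Tat (0.37) and Cps1 (0.22) highest, and 3 negative. Endothelial markers had 2 of 4 positive and 0 past the test (1175 to 1428 against 1119 to 1239), with Lyve1 at 0.53 and Kdr at -0.15. Of the lymphocyte markers, 3 of 3 measured genes were negative and 0 passed the test, with a summed signal of 135 to 169 against 155 to 199. Kupffer cell markers summed to 1216 to 2099 in HP and 1557 to 2220 in NP pools, with 1 of 5 positive over all pools. Their direction differed by fat level. On LF 0 of 5 were positive after 1 week (median -0.43) and 1 of 5 after 12 weeks (-0.53). On HF these were 5 of 5 (0.40) and 3 of 5 (0.13). Of the periportal hepatocyte markers 2 of 3 were positive (18069 to 21020 against 16590 to 18641), with Hal at 0.32 and Pck1 at 0.44, adjusted p = 0.225 and 0.235 in limma. The third, Cyp2f2, was at -0.04. The pericentral list, which holds Oat as well, had 2 of 6 positive (24616 to 27953 against 23866 to 26556), and its member Lgr5 fell by 0.95 (adjusted p = 0.0355 in limma). The other members of this list lay at 0.48 (Oat), 0.13 (Cyp1a2), -0.01 (Cyp2e1), -0.08 (Axin2) and -0.10 (Glul). Kidney markers, as a sign of other tissue, summed to 81 to 96 in HP and 84 to 93 in NP pools. Positive were 1 of 4 cholangiocyte, 2 of 5 stellate cell and fibroblast and 3 of 4 adipocyte markers. Alas2, the 1 erythroid marker with a value, was at -0.30, and 0 genes of these lists passed the test. The part of these cells or zones in the differences of Aass and the other enzymes was not tested.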

How the data were processed

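Deposited values are log2 signals per probe set that the authors obtained by robust multiarray analysis (RMA), that is, after background correction and quantile normalisation. No counts exist for arrays, and their number limits the precision. They cover 35556 probe sets as designed by the manufacturer, unlike the regrouped ones of the methods. Of these, 21789 have 1 gene symbol, 1621 several and 12146 none, and only those with 1 were used. Where a gene had several (999 genes), its brightest probe set on average was taken, but each of the 9 enzymes has 1.

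The 8 diet pools were fitted in limma 3.58.1 (R 4.3.3) on protein, fat and week, added without interactions, and the reference pool stayed out. There are 4 residual degrees of freedom and 3.52 from the prior. Adjustment of p-values followed Benjamini and Hochberg, over 19938 genes. Interactions came from fits with 1 more term. Where a pool was left out, the spread was pooled over the others. All listed enzymes are named, and from each pathway list the genes past the test and up to 4 others with the smallest unadjusted p. Members and lists were chosen with earlier results of these data known. The fit was also run on simulated data with independent noise and no fat, week or interaction effects. That run does not show how the test behaves where such effects exist. Python 3.11.15 was used for tables (pandas 2.3.3 and NumPy 2.4.6) and for figures (matplotlib 3.10.9). Alternatives are given in the closing section.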

Additional observations from a re-analysis of the deposited data

Results flagged for a closer look

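In the NP pools, Aadat had a log2 signal of 10.41 in the HF-NP pool of week 1, far from the other 3 at 9.94 to 9.97, a gap beyond Dixon's 95% critical value for 4 values. The 4 pools differ in fat level and week, so they are not repeats of 1 diet. This was 1 of 18 groups of 4 pools examined, and chance flags about 1 in 20.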

How the results depend on the processing

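The 9 enzymes were refitted under 21 alternatives. Aass kept its direction in all of them (0.48 to 0.62), and lost its call in 15. It passed with an intensity trend, when only genes above the median level were tested, with array weights, centred arrays, the mean of a gene's probe sets and a threshold of 0.1. The count of listed enzymes past the test, 1 in the report, became 0 without covariates, with matched comparisons as blocks, with every probe set as a feature, with the pools of week 1, week 12, LF or HF alone, and with any of the 8 pools left out (0 to 0). The count over all genes, 88 in the report, was 219 above the median level, 140 with array weights, 152 with centred arrays, 39 with blocks, 208 at a threshold of 0.1, 0 in each of the 4 subsets of week 1, week 12, LF and HF pools, and 1 to 36 with 1 pool left out. Aldh7a1, Gcdh, Prodh, Prodh2 and Aldh4a1 stayed positive and short of the threshold in all 21.

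The sign turned for Aadat on LF alone (0.17) and over -0.14 to 0.0725 with 1 pool left out, for Dhtkd1 in week 1 alone (0.0782), on HF alone (0.0214) and over -0.0915 to 0.0566 with 1 pool left out, and for Aldh18a1 in week 12 alone (-0.28), on LF alone (-0.18) and over -0.21 to 0.16 with 1 pool left out. The pools whose removal turned the sign were HF-NP (0.0725) and HF-HP (0.0176) of week 1 for Aadat, LF-NP (0.0279) and LF-HP (0.0566) of week 12 for Dhtkd1, and HF-NP (-0.13) and HF-HP (-0.21) of week 1 for Aldh18a1. For the other pathway genes, whose alternatives were chosen after seeing the data, it turned for Aldh9a1 in week 1 alone (-0.0486) and over -0.0089 to 0.0606 with 1 pool left out (negative without LF-NP or HF-HP of week 12). Oat passed above the median level (adjusted p = 0.0303), as did Aldh1l1 (0.0474). That filter leaves Aldh18a1, Psat1 and Slc7a11 without a value. For fat and week 0 listed enzymes passed under any alternative run. Of 36 changes from the reference under other baselines, 2 moved by over 1 SD, both with LF-NP pools averaged as the baseline. These were the HP means of Aadat (-0.0049) and Prodh (0.18). The cause of these moves was not tested. The labels give the pools no shared replicate numbers, and the fit with blocks pairs HP and NP pools by fat level and week. Its other lost calls, besides Aass, were Hykk, Agxt and Aldh1b1 among the pathway genes.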
